A study of Mus musculus with 20 samples.

Results

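Ovaries of adult wild-type mice given HEP14 were compared with ovaries of adult wild-type mice not labelled with HEP14, both at 27 to 28 weeks of age. The comparison took the 8 libraries so labelled, 4 per group, out of 20 in the series, and every one of the 17651 genes in the table. The adult HEP14 group appears in the sample titles and not in the text that describes the design. Its dose, route, duration and number of animals per library, and the vehicle and cycle stage of both adult groups, are not stated in the labels. The other 12 libraries are from young ovaries (7 to 8 weeks), aged ovaries given vehicle (73 to 74 weeks) and aged ovaries given HEP14, 4 each, all wild type, and the aged groups enter only where the effect of HEP14 is compared between ages. Nothing in the labels says whether a library is 1 mouse, so p-values measure the spread between libraries.

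HEP14 is a small molecule found as an activator of protein kinase C that promotes the formation of lysosomes. In cultured cells it works through the transcription factor TFEB, which moves to the nucleus and switches on genes of lysosomes and autophagy. Mitophagy is the branch of autophagy that removes damaged mitochondria, with the kinase PINK1 as a sensor of the damage. In the adult ovary, transcripts also vary with the estrous cycle: the surge of luteinizing hormone switches on ovulation genes in granulosa cells, and corpora lutea make steroid hormones from cholesterol.

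Each deposited value is a score, in which a gene has a mean of 0 and an SD of 1 over the 20 libraries. A difference is thus in SD of that gene and is not a fold change, and read depth is not known. The defining markers of the ovary that could be checked, 12 of 14, were present in all 8 libraries, none at the lowest score of its gene shared by several libraries. They cover oocytes (Gdf9, Zp3), granulosa cells (Amh, Inha), theca cells (Insl3, Cyp11a1) and corpora lutea (Ptgfr, Akr1c18). Fshr, Cyp17a1 and the macrophage marker Csf1r were not analysed here. Of the 12 ovarian markers and 11 markers of oviduct, fat, smooth muscle, blood and immune cells, 0 passed the test and 0 had an unadjusted p under 0.05. Over all genes 0 passed and 3.04% had such a p.

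The 8 libraries did not split by treatment. The group means held 12.57% of the variance among them. On the first principal component, which held 29.9%, adult libraries 1 to 4 lay at 40.84, 65.37, 3.72 and -57.24, and HEP14 libraries 1 to 4 at -13.66, 9.58, -57.66 and 9.06. Adult libraries 1 and 2 lay together at the high end, and adult library 4 lay beside HEP14 library 3 at the low end. Across genes, the scores correlated at 0.05 to 0.60 within the control group (6 pairs), at 0.08 to 0.36 within the HEP14 group (6 pairs) and at -0.02 to 0.57 between groups (16 pairs), with medians of 0.19, 0.27 and 0.26. Adult libraries 1 and 2 were the closest pair within a group, and adult library 4 and HEP14 library 3 the closest across groups. These pairs recur below, and list medians are given without each pair. Libraries at the lowest score of a gene may hold no reads of it: 948 ± 194.4 genes per control library (SD, n = 4) and 831.8 ± 112.7 per HEP14 library (SD, n = 4) were at a shared lowest score, with an exact two-sided permutation p of 0.486, where 0.0286 is the smallest that 4 against 4 allows.

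**Figure D1:**
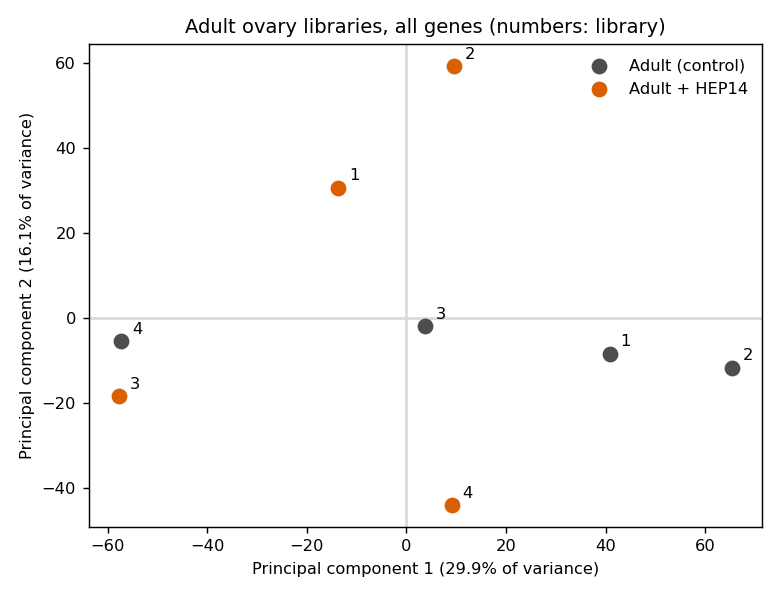
Position of the 8 adult ovary libraries on the first and second principal component of all genes (arbitrary units; axis labels give the share of variance). Grey points are controls and orange points HEP14, numbered by library; control libraries 1 and 2 lie at the right, and control 4 and HEP14 3 lie together at the left.

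No gene passed the test of HEP14 against control. With limma's moderated test on the 8 libraries, 0 of 17651 genes (0%) had a Benjamini-Hochberg adjusted p under 0.05, and the smallest adjusted p was 1. At an unadjusted p under 0.05 there were 537 genes (3.04%), of which 282 were higher with HEP14 and 255 lower. All 4 HEP14 libraries lay outside the range of the 4 controls in 252 genes (1.43%), 137 higher and 115 lower. With labels set at random, 4 libraries stand clear of 4 others with a probability of 0.0286 per gene. An unadjusted p under 0.05 then has a probability of about 0.05, and both shares seen here were lower. Means were higher in 49.4% of genes and lower in 50.2%, so the table as a whole leaned neither way.

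The size of the differences was small next to their error. The median absolute difference was 0.21 SD, 433 genes (2.45%) differed by over 1 SD, and the largest difference was 2.30 SD. The half-width of a gene's 95% interval was 0.74 SD at the median and 1.03 SD at the 75th percentile. For 9015 genes (51.07%) the interval lay within 1 SD of 0 on both sides. For the rest the interval reached past 1 SD in at least one direction, so that a difference of that size was not excluded.

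**Figure D2:**
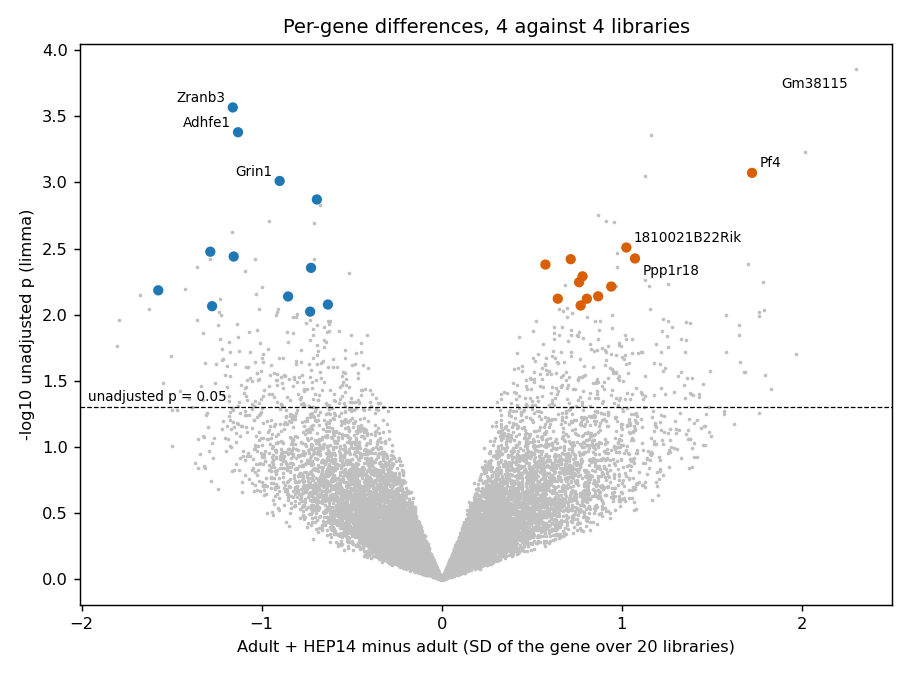
Difference of group means for each gene (x axis, SD of the gene over 20 libraries) against the -log10 of the unadjusted limma p (y axis). Coloured points are the 12 genes in each direction with the smallest p, no overlap between groups and no shared lowest score; the dashed line is an unadjusted p of 0.05, and no gene passed after adjustment.

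As no gene passed, the genes named next are those with the smallest p in each direction among genes whose groups did not overlap. They describe these libraries, each with an adjusted p of 1. The highest was Pf4, a chemokine of platelets that some macrophages also make (ENSMUSG00000029373, chr5:90772435-90773383, plus strand, GRCm38). Its scores were -0.55, -1.59, -1.23 and -0.20 in the controls and 0.99, 0.77, 0.42 and 1.14 with HEP14, a difference of 1.72 (SE 0.33, 95% interval 0.96 to 2.49). All controls lay below 0 and all HEP14 libraries above it.

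The other genes with the smallest p and higher means had varied roles. Cstb, an inhibitor of lysosomal cathepsins (chr10:78425669-78427622, plus strand), scored 0.35, 0.18, 0.17 and 0.36 in the controls and 1.04, 0.87, 0.70 and 0.75 with HEP14. The groups were each tight and stood apart by 0.58 (SE 0.14). Ctsk, a lysosomal cathepsin that degrades collagen, scored -0.90, -0.78, -0.49 and -0.29 against -0.25, 0.43, 0.11 and 0.49, with HEP14 library 1 just above the highest control. Dram1, a lysosomal membrane protein induced by p53 that takes part in autophagy, scored -0.43, 0.16, -0.62 and -0.05 against 0.23, 0.60, 0.52 and 0.80. Acvr1, a receptor for bone morphogenetic proteins, differed by 0.94 (SE 0.25), and Agtr2, the type 2 angiotensin receptor, by 0.76 (SE 0.20). Tpst1, which adds sulfate to tyrosines of secreted proteins, differed by 0.65, Ywhah, a 14-3-3 adaptor, by 0.87, Ppp1r18, which binds phosphatase 1 and actin, by 1.07, and Hhipl1 by 0.78. The last of the 12 were the antisense transcripts 1810021B22Rik (1.03) and Man2c1os (0.72), whose reads cannot be told from those of the opposite strand, since no strand setting is given.

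The genes with the smallest p and lower means also had varied roles. Zranb3, an enzyme that remodels stalled replication forks (ENSMUSG00000036086, chr1:127954184-128103047, minus strand), scored -0.05, 0.16, 0.26 and 0.10 in the controls and -0.82, -1.48, -0.96 and -0.90 with HEP14, a difference of -1.16 (SE 0.19, 95% interval -1.59 to -0.73). Each group was narrow, and every HEP14 library lay well below every control. Adhfe1, a mitochondrial enzyme that oxidizes gamma-hydroxybutyrate (chr1:9547948-9580673, plus strand), scored 0.04, -0.03, -0.26 and -0.20 against -0.87, -1.35, -1.13 and -1.62. Cish, an inhibitor of cytokine receptors that STAT5 induces, scored 0.99, 1.03, 1.003 and -0.06 against -0.32, -0.54, -0.12 and -0.67, and control library 4 lay close to the HEP14 libraries. Adamts6, a secreted metalloprotease, had the widest controls, -0.36, 0.28, 1.70 and 0.27, against -1.45, -1.38, -0.75 and -0.83. Grin1, a glutamate receptor subunit, differed by -0.90 (SE 0.18), Pkd2l2, a channel of the polycystin family, by -1.28, Arhgef7, an activator of small GTPases, by -1.27, Nt5c3, a pyrimidine nucleotidase, by -0.85, the small GTPase Diras2 by -0.73, Maco1 by -0.73, Tmed8 by -0.63 and the antisense transcript 1700124L16Rik by -0.69.

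A transcript outside that rule, picked after its values were seen, had the largest difference of all. Gm38115 (ENSMUSG00000102930, chr1:36913601-36916539, minus strand, GRCm38) is annotated as a long noncoding RNA within an intron on the sense strand of another gene. It stood at its lowest score, -0.53, in all 4 control libraries and at 2.31, 1.94, 2.10 and 0.72 with HEP14, a difference of 2.30 (SE 0.34). Of the other 12 libraries, only aged HEP14 library 2 was above the lowest score, at 0.86. Its adjusted p was 1 in the 8 libraries and 0.0284 in a limma fit of all 20, where it was the 1 gene that passed. Every young, control and aged vehicle library stood at the lowest score, so these groups added no spread to that fit. As the transcript was also picked by its values, the pass is no separate support. As it lies on the same strand as the gene around it, reads of that gene's unspliced RNA cannot be told from its own. In all, 2 genes were at the lowest score in every control and above it in every HEP14 library (Gm38115 and the muscle myosin gene Myh8), and 2 were the reverse (Gm37564 and Gm48771).

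Transcripts of the route that HEP14 is known for had list medians near 0. They do not measure the activity of the kinases or the place of TFEB in the cell. Of 14 protein kinase C and D genes, 6 had a higher and 8 a lower mean with HEP14, with a median difference of -0.05, against a median of -0.00 over all genes. Prkca scored 0.49, 1.44, 0.93 and -0.14 in the controls and 0.39, 0.39, -0.43 and 0.36 with HEP14, so that its -0.50 (SE 0.36) lay within the spread. Prkcd scored -0.56, -0.30, 0.53 and 0.26 against -0.53, -0.79, 0.90 and 0.31, with both groups spanning 0, and Prkch, another of the kinases, differed by 0.03. Prkce was not analysed here. The 13 genes of the TFEB family and its regulators had a median of -0.03 (6 higher, 7 lower): Tfeb itself scored -0.20, 0.43, -0.87 and -0.41 against -0.57, -0.31, -0.73 and -1.004, and the largest was Ppp3ca, a catalytic subunit of calcineurin, the phosphatase that releases TFEB, at -1.02.

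Lysosome genes were split. Of 39, 21 were higher and 18 lower, with a median of 0.05. The side of the median depended on the libraries: it was 0.21 without control libraries 1 and 2 (28 of 39 higher), -0.09 without HEP14 library 2 (14 higher), -0.04 without control library 3 and 0.16 without HEP14 library 1. The lysosomal membrane protein Lamp1 scored 0.69, 0.82, 0.38 and 0.64 against 0.62, 0.77, 0.56 and 0.50, an interval of -0.38 to 0.33 for the difference. The aspartic protease Ctsd scored 1.004, 0.86, 0.04 and 0.92 against 0.86, 0.83, 0.28 and 0.71, with control library 3 the one low value. Mcoln1, a calcium channel of the lysosome, differed by -0.28 (SE 0.33). At the top of the list stood cathepsins: Ctsz at 1.23, Ctsh at 0.97 and Ctsk at 0.81, the 3 lysosome genes with an unadjusted p under 0.05 (1.6% of all genes were higher at that p). Ctsz scored -1.04, -1.50, -1.22 and 0.11 against 0.78, 0.43, 0.19 and -0.12, and control library 4 overlapped with the HEP14 group. Gaa, the acid glucosidase, lay towards the bottom at -0.52. The proton pump of lysosomes, the V-ATPase, had a median of -0.11 over 16 genes (6 higher, 10 lower), and its stalk subunit Atp6v1d was lower in every HEP14 library than in any control (-0.45).

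Autophagy and mitophagy genes gave medians of -0.06 (26 genes, 10 higher) and -0.00 (19 genes, 9 higher). Pink1 scored 0.61, 0.86, -0.35 and 1.16 in the controls and 0.66, 0.91, 0.46 and 0.46 with HEP14, a difference of 0.05 (SE 0.32, 95% interval -0.70 to 0.80). The receptor Bnip3 differed by -0.03 (interval -0.61 to 0.55) and the adaptor Sqstm1 by -0.13 (interval -0.83 to 0.56). The ends of the list were Tomm7, a subunit of the import channel of the outer membrane, at 1.27, and Usp15, a deubiquitinase, at -0.96. Tomm7 scored -1.22, -1.28, -0.49 and -0.42 against 1.98, -1.52, 0.92 and 0.30: it was high in HEP14 libraries 1 and 3 and lowest of all in HEP14 library 2.

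Antioxidant genes gave a median of 0.05 over 33 genes, 17 higher and 16 lower. Nfe2l2, the regulator that turns many of them on, scored 0.38, 0.36, 0.24 and 0.79 against 0.73, 0.63, 0.85 and 1.16, a difference of 0.40 (interval -0.04 to 0.84) with overlap. The mitochondrial superoxide dismutase Sod2 had the largest difference, -1.04 (SE 0.66), and scored 2.20, 1.39, -0.23 and -0.50 against 0.71, -0.80, -0.32 and -0.88. Controls 1 and 2 were far above the rest, and without both of them the difference was 0.04. Cat, which encodes catalase, scored 0.95, 1.89, -0.01 and 0.12 against 0.12, 0.18, 0.06 and 0.03, again with controls 1 and 2 high, and was 0.04 without both. Gpx1, a glutathione peroxidase, differed by -0.02 (interval -0.51 to 0.48), the mitochondrial peroxiredoxin Prdx3 by -0.31, heme oxygenase Hmox1 by 0.23 and the quinone reductase Nqo1 by 0.12. Sod1 was not analysed here. A short list of genes of mitophagy, lysosomes, protein kinase C, antioxidant defence and ovarian function had 26 members, of which 24 were measured. Of these 24, 7 were higher and 17 lower. An unadjusted p under 0.05 was found for 0, against 3.04% of all genes, and 0 were without overlap, against 1.43%. For 16 the interval lay within 1 SD of 0, as for 51.07% of all genes. With so few genes, a count of 0 is close to those shares.

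Whole functions were described with 51 gene lists, which hold 1153 genes of the table. Of these genes, 0 passed the test, 32 (2.77%) had an unadjusted p under 0.05, against 3.04% of all genes, and 9 (0.781%) did not overlap between groups, against 1.43%. In 0 of the 51 lists did the mean scores of the 4 HEP14 libraries stay clear of those of the 4 controls. Several lists nonetheless leaned to one side. Those with the largest median differences were ovulation response (0.72), cholesterol synthesis (-0.70), macrophages (0.66), cytosolic ribosomal proteins (0.61), fatty acid synthesis (-0.48), ER stress and amino acid response (0.47), ribosome biogenesis (0.45), core histones (-0.43), MHC class I loading (0.42), blood (-0.39), nuclear respiratory chain (0.38) and chemokines and cytokines (0.38). Members of a list vary together over libraries, so a lean of many members is not many separate observations.

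**Figure D3:**
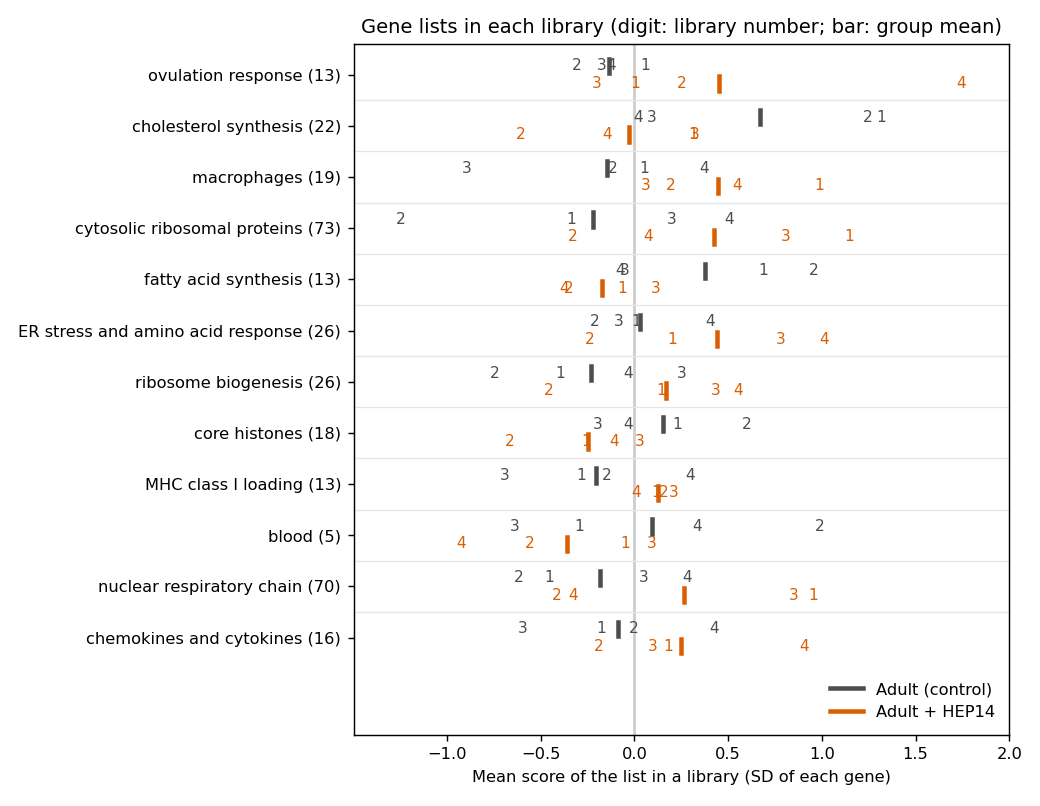
Mean score of each of the 12 lists with the largest median differences in each library (x axis, SD of each gene; number of measured genes in brackets). Digits are library numbers, grey for controls and orange for HEP14, and bars are group means; the groups overlap in every list.

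Macrophage genes had higher means with HEP14 in 18 of 19 cases. The list's mean score was 0.05, -0.12, -0.89 and 0.37 in the controls and 0.99, 0.20, 0.06 and 0.55 with HEP14, so control library 3 was the lowest, HEP14 library 1 the highest, and control library 4 lay above HEP14 libraries 2 and 3. At an unadjusted p under 0.05 stood 5 members, where 1.6% of all genes were higher at that p. They were C1qa and C1qc of the first complement component, the lipid receptor Trem2, the signalling chain Fcer1g and the fractalkine receptor Cx3cr1, each with an adjusted p of 1. C1qc scored 0.38, -0.13, -0.61 and 0.89 in the controls and 1.69, 0.86, 0.95 and 1.03 with HEP14, a difference of 1.001 (SE 0.35). C1qb had the largest difference, 1.06, and scored 0.31, -0.42, -1.15 and 1.16 against 2.04, 0.53, 0.57 and 0.99. Adgre1, a surface receptor that defines mouse macrophages, scored 0.58, -0.10, -1.51 and 0.94 against 1.41, 0.58, -0.12 and 0.72, while Cd68 differed by 0.28 and the efferocytosis receptor Mertk, the 1 gene with a lower mean, by -0.26. In whole ovaries more macrophages and more RNA of these genes per cell cannot be told apart. Without control library 3 the list's median was 0.43. Without control libraries 1 and 2 it was 0.75 with 19 of 19 members higher, with the low control library 3 still in.

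Other immune lists leaned the same way with smaller values. Chemokines and cytokines were higher in 13 of 16 (median 0.38), with Ccl4 at 0.99 and Csf1, the growth factor of macrophages, at 0.45. Csf1 scored -1.01, -0.71, -0.88 and -0.64 against -0.61, -0.20, -0.27 and -0.37, with no overlap. Without HEP14 library 4 this list's median was 0.17, and without control library 3 it was 0.24. MHC class I loading genes were higher in 12 of 13 (median 0.42), T and NK cell genes in 17 of 20 (median 0.25) and MHC class II genes in 8 of 9 (median 0.16). MHC class II list scores were 0.19, -0.03, -0.82 and 0.23 in the controls and 0.725, -0.12, -0.30 and -0.03 with HEP14. In that list HEP14 libraries 2 to 4 lay above control library 3 alone. The MHC class I median was 0.17 without control library 3, 0.27 without control library 2, 0.27 without HEP14 library 2 and 0.28 without HEP14 library 3. B and plasma cell genes were split 8 to 8, and interferon response genes were higher in 11 of 28 (median -0.06). Control library 3, the lowest for macrophages, was also the lowest for chemokines and cytokines (-0.59), MHC class I loading (-0.69), MHC class II (-0.82), T and NK cells (-0.65) and the interferon response (-1.23). The cathepsins Ctsz, Ctsh and Ctsk that led the lysosome list are abundant in macrophages as background, and the part of these cells in their values was not tested.

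Cholesterol synthesis had a lower mean with HEP14 in 22 of 22 genes. Insig1, a sterol sensor of the endoplasmic reticulum, scored 1.59, 1.63, 0.30 and -0.28 in the controls and 0.48, -0.98, -0.01 and -0.03 with HEP14, a difference of -0.94 (SE 0.51). Controls 1 and 2 were high, and controls 3 and 4 lay within the HEP14 range. Tm7sf2, a sterol reductase (chr19:6062821-6068373, minus strand), had the largest difference, -1.08 (SE 0.49), and scored 0.93, 1.71, -0.21 and -0.37 against -0.35, -0.84, -0.06 and -1.03. Hsd17b7 and Nsdhl, which act at the 4-demethylation step, differed by -0.91 and -0.68. Srebf2, the transcription factor of the pathway, scored 0.77, 1.84, -0.34 and 0.79 against -0.49, 0.29, 1.05 and 0.70, a difference of -0.38. At an unadjusted p under 0.05 stood 0 of the 22, where 1.44% of all genes were lower at that p. The list's mean score was 1.31, 1.25, 0.09 and 0.02 in the controls and 0.31, -0.60, 0.32 and -0.14 with HEP14. Without control libraries 1 and 2 its median was -0.10, with 7 genes higher and 15 lower.

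Fatty acid synthesis followed the same libraries. Its 13 genes had lower means (median -0.48), with list scores of 0.68, 0.95, -0.05 and -0.07 against -0.07, -0.35, 0.11 and -0.38. Elovl5, which lengthens polyunsaturated fatty acids, scored 0.80, 1.71, 0.61 and 0.08 against 0.20, -0.65, 0.24 and -0.43, and Acss2, which makes acetyl-CoA from acetate, scored 1.35, 1.78, -0.38 and -0.9985 against -0.22, -0.61, -0.80 and -1.29. Fasn, the synthase itself, differed by -0.07. Without controls 1 and 2 the median was -0.12, with 4 genes higher and 9 lower. The range of the young libraries for cholesterol synthesis was -1.14 to -0.60, that of the aged libraries -0.84 to 1.03 and that of the aged HEP14 libraries -0.28 to 1.05.

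**Figure D4:**
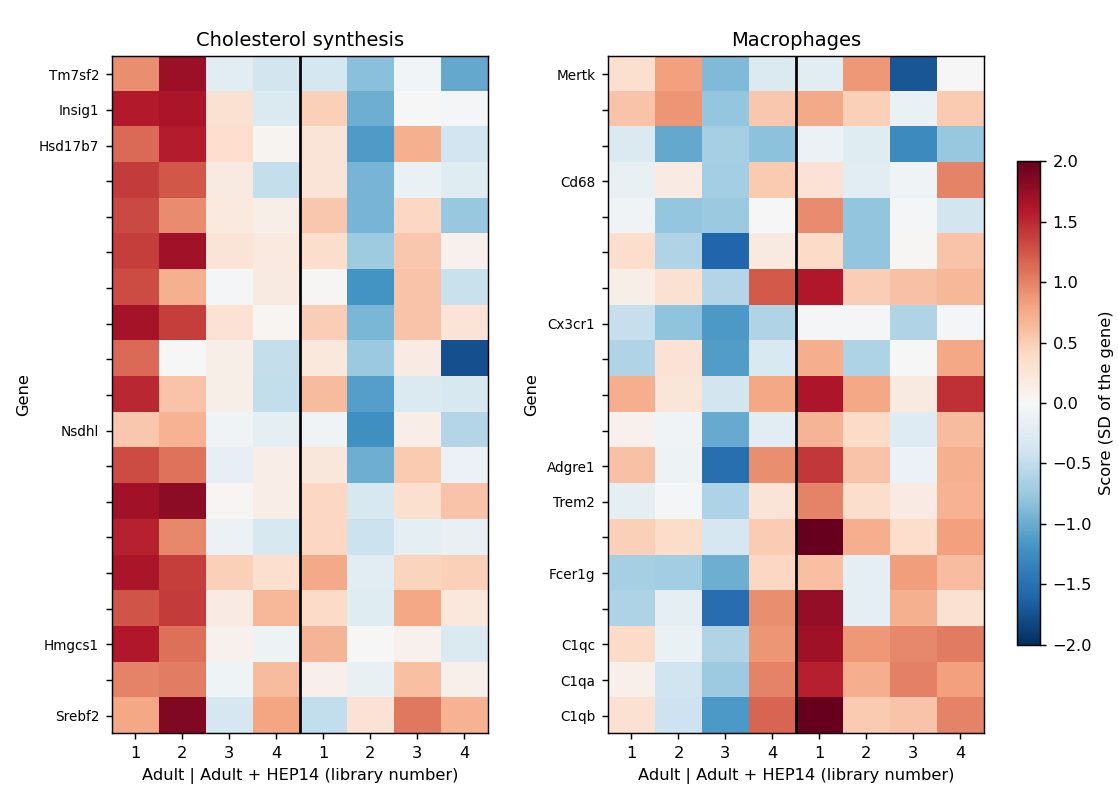
Scores (colour, SD of the gene; blue low, red high, colours saturate at 2) of cholesterol synthesis genes (left) and macrophage genes (right), one row per gene, with the names of those described in the text, ordered by the difference from the lowest to the highest. Columns are control and HEP14 libraries 1 to 4; in the left panel the red cells lie mostly in control libraries 1 and 2, and in the right panel control library 3 is mostly blue.

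As these genes varied together from library to library, their promoters were examined for 2 motifs of the sterol pathway. RefSeq promoters of 300 bases (build GRCm38.p6) were found for 15 of the 22 genes, as 17 promoters. CCAAT, the box bound by NF-Y, was searched on both strands, where it reads ATTGG on the other, and so was TCACNCCAC, a form of the sterol response element bound by SREBP. No CCAAT box overlaps a response element in the promoters shown. CCAAT was present in promoters of 15 of 15 genes (15 of 17 promoters), against 37.41% of 32851 promoters and 36.71% of the 14663 promoters of genes in the table. TCACNCCAC was present in 1 of the 15 genes, Hmgcs1, against 1.242% of all promoters. The 3 shown are Hmgcs1, the synthase with both motifs, picked for that reason, and Tm7sf2 and Nsdhl, the list members with the smallest p; capitals mark the motifs.
Hmgcs1, chr13:119690101-119690400, plus strand: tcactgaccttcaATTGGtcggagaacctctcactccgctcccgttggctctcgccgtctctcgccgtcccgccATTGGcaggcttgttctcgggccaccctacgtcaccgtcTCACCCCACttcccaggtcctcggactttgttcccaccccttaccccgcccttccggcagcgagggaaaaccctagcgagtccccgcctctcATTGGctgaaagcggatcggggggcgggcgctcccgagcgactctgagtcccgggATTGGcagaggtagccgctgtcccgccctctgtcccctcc
Tm7sf2, chr19:6067801-6068100, minus strand: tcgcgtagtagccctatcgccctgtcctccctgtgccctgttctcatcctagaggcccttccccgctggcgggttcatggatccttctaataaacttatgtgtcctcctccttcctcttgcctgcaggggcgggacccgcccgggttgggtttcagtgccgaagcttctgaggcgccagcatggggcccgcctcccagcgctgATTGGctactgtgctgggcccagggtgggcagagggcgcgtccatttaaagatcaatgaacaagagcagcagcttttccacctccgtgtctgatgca
Nsdhl, chrX:72918271-72918570, plus strand: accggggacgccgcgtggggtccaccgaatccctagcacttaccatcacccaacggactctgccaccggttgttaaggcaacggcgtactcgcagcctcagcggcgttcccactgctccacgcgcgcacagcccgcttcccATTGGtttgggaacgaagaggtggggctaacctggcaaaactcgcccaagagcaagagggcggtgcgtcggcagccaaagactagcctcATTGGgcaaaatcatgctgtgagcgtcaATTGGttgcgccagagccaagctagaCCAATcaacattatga
Hmgcs1 holds 4 CCAAT boxes and 1 response element in this window, and Tm7sf2 holds 1 box and Nsdhl 4. The Tm7sf2 window lies inside the gene as GENCODE annotates it (chr19:6062821-6068373, minus strand), downstream of that annotated start. Hmgcs1 scored 1.60, 1.09, 0.09 and -0.11 in the controls and 0.68, -0.01, 0.08 and -0.29 with HEP14, a difference of -0.55 (SE 0.42). A match is a description of the letters and shows no binding.

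Cytosolic ribosomal proteins, which build the translating ribosome, had higher means with HEP14 in 70 of 73 genes. The list's mean score was -0.33, -1.25, 0.20 and 0.51 in the controls and 1.15, -0.33, 0.81 and 0.07 with HEP14. Control library 2 was the lowest, HEP14 libraries 1 and 3 were the highest, and HEP14 library 2 lay at the level of control library 1. Rpl38 scored -1.37, -1.53, -0.89 and 0.01 against 2.53, -1.07, 1.22 and 0.85, a difference of 1.83 (SE 0.73), and Rps29 -0.80, -0.83, -0.49 and 0.12 against 2.31, -0.68, 1.31 and 0.78. These 2 were the members with an unadjusted p under 0.05, where 1.6% of all genes were higher at that p. Both encode very small proteins, and Rpl24 was the clearest exception, at -0.35. Many ribosomal protein genes have near-identical processed pseudogenes, so their counts are uncertain. The median was 0.61, and it was 0.23 without control library 2, 0.39 without HEP14 library 1 and 0.02 without control libraries 1 and 2, where 37 genes were higher and 36 lower.

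Ribosome biogenesis showed the same control libraries. Means were higher in 24 of 26 genes (median 0.45), with list scores of -0.40, -0.74, 0.25 and -0.03 against 0.15, -0.46, 0.44 and 0.55. Pes1, a factor for maturation of the large subunit, scored -0.89, -0.80, 0.19 and 0.50 against 0.76, 0.55, 1.05 and 0.87 and did not overlap, whereas Polr1a, the largest subunit of RNA polymerase I, differed by -0.54. The median was 0.23 without control library 2, 0.26 without HEP14 library 4, 0.68 without HEP14 library 2 and 0.02 without control libraries 1 and 2. Among the related lists, tRNA synthetases had a median of 0.35 (12 of 16 higher), mitochondrial ribosomal proteins 0.24 (48 of 57), proteasome subunits 0.21 (22 of 24), the spliceosome 0.17 (27 of 37) and cytosolic chaperones 0.07 (17 of 26). Proteasome list scores were -0.14, -0.25, 0.64 and 0.46 in the controls and 0.60, -0.18, 1.05 and 0.24 with HEP14. Those of mitochondrial ribosomal proteins were -0.39, -0.65, 0.12 and 0.25 against 0.52, -0.37, 0.67 and -0.36. Control libraries 1 and 2 were the low controls in both, and no median without them is given.

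Nuclear and mitochondrial genes of the respiratory chain leaned opposite ways. Nuclear subunits had higher means in 56 of 70 (median 0.38), led by Atp5k, a subunit of ATP synthase, at 1.43, which scored -0.99, -1.10, -0.35 and 0.08 against 2.15, -0.64, 1.25 and 0.59. The list's mean was -0.45, -0.62, 0.05 and 0.28 against 0.96, -0.41, 0.85 and -0.33, high in HEP14 libraries 1 and 3 alone. Its median was 0.18 without either HEP14 library 1 or 3, 0.24 without control library 2 and 0.14 without control libraries 1 and 2. It was 0.59 without control library 4, 0.65 without HEP14 library 2 and 0.68 without HEP14 library 4. Mitochondrially encoded genes had lower means in 12 of 13 (median -0.15), with list scores of -0.39, -0.18, -0.29 and -0.45 against -0.47, -0.66, -0.43 and -0.49, where HEP14 library 3 lay just above control library 4. The complex I subunit mt-Nd2 scored -0.34, -0.09, -0.30 and -0.29 against -0.54, -0.61, -0.34 and -0.45 and did not overlap, and mt-Nd3 was the 1 gene with a higher mean (0.28). The citric acid cycle had a median of -0.09 (5 of 14 higher), fatty acid oxidation 0.01 (9 of 18) and mitochondrial biogenesis and dynamics -0.14 (5 of 16).

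The ovulation response had higher means in 11 of 13 genes, and its lean lay in HEP14 library 4. The list's mean score was 0.06, -0.31, -0.18 and -0.12 in the controls and 0.00, 0.26, -0.20 and 1.74 with HEP14. Ptgs2, the prostaglandin synthase that the luteinizing hormone surge induces, scored -0.22, -0.30, -0.27 and -0.23 against -0.40, -0.05, -0.38 and 4.10, so that 1 library of 8 made the difference of 1.07 (SE 0.97). The epidermal growth factor ligand Ereg reached 3.69 in the same library, the matrix factor Tnfaip6 reached 3.40 and the cytokine Il6, picked after its values were seen, reached 3.69. Areg, another ligand of that receptor, scored -0.66, -0.83, -0.51 and -0.83 against -0.37, -0.19, -0.47 and 1.11 without overlap, and 5 of the 13 genes had a shared lowest score in some libraries. The median was 0.72, and 0.46 over the 8 genes with no shared lowest score (6 of them higher). Without HEP14 library 4 it was 0.10, and without HEP14 library 2 it was 0.45 (12 of 13 higher).

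Immediate early genes, which respond to stimuli within minutes, were highest in the same library. Their list scores were -0.17, 0.33, -0.42 and 0.35 against -0.20, -0.35, -0.12 and 1.87, with 16 of 23 higher and a median of 0.31 that turned to -0.27 without HEP14 library 4 and was 0.48 without HEP14 library 2. Nr4a1 scored -0.64, 0.62, -0.47 and -0.24 against -0.36, 0.15, 0.91 and 2.76, while Fos (-0.45) and Egr1 (-0.37) had lower means with HEP14. ER stress and amino acid response genes were higher in 24 of 26 (median 0.47), with list scores of 0.01, -0.21, -0.09 and 0.41 against 0.20, -0.24, 0.78 and 1.01. Creld2 differed by 1.002, the transcription factor Atf4 by 0.68, and the chaperone Hspa5 by 0.30, at 0.10, -0.01, 0.46 and 0.25 against 0.17, -0.79, 0.97 and 1.65. The median was 0.22 without HEP14 library 4, 0.28 without HEP14 library 3 and 0.30 without control library 2.

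Genes of the ovarian cell types themselves had medians near 0. Oocyte genes gave 0.01 (16 of 27 higher), granulosa cells of growing follicles -0.02 (6 of 15), theca and steroid synthesis -0.04 (5 of 11) and luteal genes 0.03 (6 of 11). The oocyte growth factor Gdf9 scored 0.30, 0.02, 0.58 and 0.48 in the controls and 0.33, 0.36, 0.22 and 0.24 with HEP14 (interval of the difference -0.44 to 0.32), and the granulosa hormone Amh 0.27, 0.22, 0.33 and 0.76 against 0.03, 0.15, 0.49 and 0.46 (interval -0.55 to 0.33). Lhcgr, the receptor of luteinizing hormone, scored 0.78, 1.30, 0.41 and -0.56 against 0.35, -0.90, -0.22 and -1.14 and differed by -0.96 (interval -2.04 to 0.12), a wide range. Cyp11a1, which starts steroid synthesis, differed by -0.19, the cholesterol carrier Star by -0.30 and aromatase Cyp19a1 by 0.37. DNA replication gave a median of 0.05 (29 of 42 higher), mitosis -0.06 (13 of 38), DNA break repair -0.12 (7 of 24) and core histones -0.43 (2 of 18, 10 of them with a shared lowest score). The histone median was -0.18 without control library 2, -0.24 without HEP14 library 2 and -0.07 without control libraries 1 and 2, and histone genes are near-identical copies whose reads can be split.

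Lists of vessels, stroma and neighbouring tissue came last. Endothelial genes had a median of -0.36 (2 of 15 higher), but 0.61, 0.73, -0.57 and -0.15 against -0.31, 0.01, -0.16 and -0.18 as list scores: controls 1 and 2 were high, and without both the median was 0.15. It was -0.12 without control library 1 alone, -0.11 without control library 2 alone and -0.64 without control library 3. Blood genes had a median of -0.39 (1 of 5 higher), which was -0.18 without control library 2, -0.23 without HEP14 library 4 and -0.67 without control library 3. Collagens gave 0.15 (18 of 27), elastic fibre and stroma 0.03 (15 of 26), matrix proteases and inhibitors 0.25 (12 of 19), smooth muscle 0.21 (12 of 14) and surface epithelium 0.04 (9 of 12). Adamts5, an aggrecan protease, scored 1.75, 0.46, 1.28 and 0.86 against -1.61, -1.88, 0.66 and -0.02, the largest difference in any list (-1.80) next to Rpl38. Aldh1a2, which makes retinoic acid, scored 0.55, -0.23, -0.17 and 0.28 against 1.26, 1.93, 0.80 and 0.55. Oviduct and motile cilia gave 0.02 (14 of 21), adipose 0.12 (9 of 12), p53 and senescence 0.01 (8 of 16), hypoxia and glycolysis 0.06 (18 of 26) and the circadian clock -0.16 (4 of 14). The clock output Dbp scored -0.09, 0.50, 0.44 and -0.78 against -0.26, 1.45, -2.04 and -1.37, with a wide spread among HEP14 libraries; the labels state no sampling times.

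Library by library, the lists that leaned furthest differed in which libraries set their medians. Cholesterol and fatty acid synthesis, ribosomal proteins, ribosome biogenesis and core histones had medians from -0.12 to 0.02 without control libraries 1 and 2. Ovulation, immediate early and part of the ER stress values lay in HEP14 library 4, and the nuclear respiratory chain in HEP14 libraries 1 and 3. The macrophage median ranged from 0.43 to 0.82 when each library was left out in turn. Control library 3 and HEP14 library 1, the extremes of that list, were not left out together. Without control library 4 and HEP14 library 3, the closest pair across groups, several lists leaned further: the median was -1.09 for cholesterol synthesis, -0.85 for fatty acid synthesis, 0.95 for macrophages (19 of 19 higher), 0.58 for chemokines and cytokines, 0.91 for the ovulation response, 0.73 for ribosomal proteins and -0.61 for core histones. It was 0.39 for ribosome biogenesis, 0.42 for ER stress, 0.38 for MHC class I loading, 0.40 for the nuclear respiratory chain and -0.35 for blood. Both pairs were chosen to be left out after the data were seen. Control library 4 and HEP14 library 3 were chosen as the most alike across groups, which by itself tends to move the remaining groups apart. The medians without them therefore add no support to a lean.

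**Figure D5:**
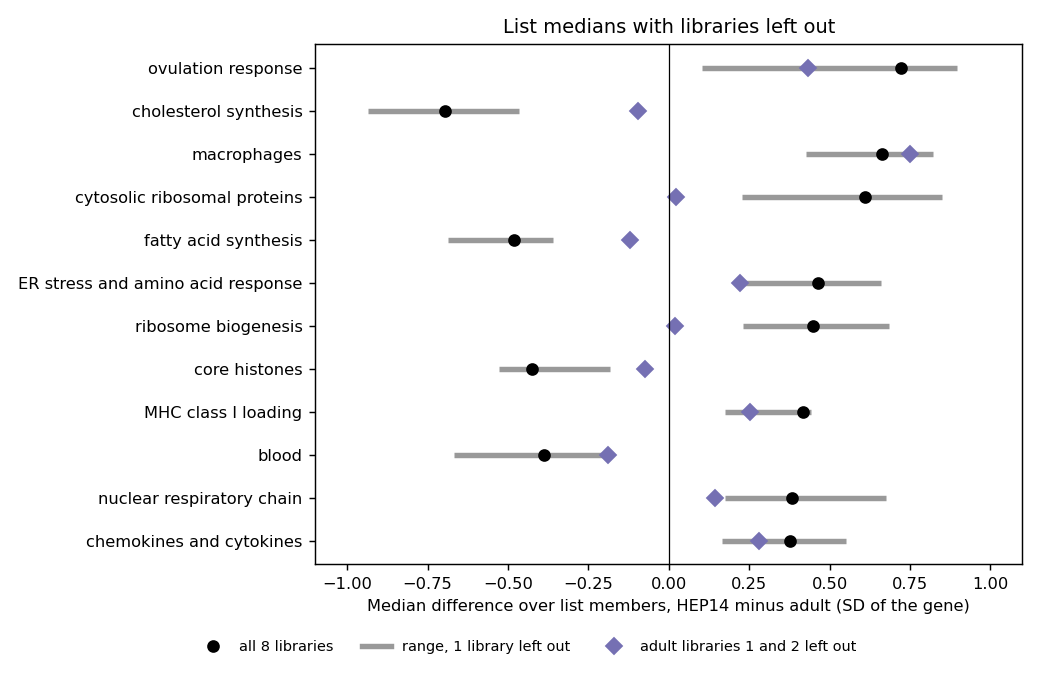
Median difference over the members of each of the 12 lists (x axis, SD of the gene) with all 8 libraries (black points), the range when 1 library is left out (grey bars) and with control libraries 1 and 2 left out (purple diamonds). Cholesterol synthesis, fatty acid synthesis, both ribosome lists and histones come close to 0 at the diamonds. The other lists stay further from 0, among them macrophages (0.75), the ovulation response (0.43), chemokines and cytokines (0.28) and blood (-0.19). The control library with the lowest macrophage score is still in at the diamonds, so they do not test the macrophage lean against that library.

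Whether HEP14 acted differently in adult and in aged ovaries was tested directly, as the adult effect minus the aged effect in all 20 libraries. In aged ovaries alone, 62.5% of genes passed for HEP14 against vehicle. The effects at the 2 ages differed in 8344 genes (47.3%), higher in adult in 3955 and lower in 4389, by limma at an adjusted p under 0.05. The 2 effects share no library, and the labels do not say whether adult controls were given the vehicle that aged controls received. Aged libraries varied more, with a median SD within the group of 0.867 against 0.447 in adult controls, 0.424 in adult HEP14 and 0.462 in aged HEP14 libraries. With 1 variance per group 7056 genes passed.

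Some genes of mitophagy, lysosomes and antioxidant defence were among the 47.3% of all genes that differed. Pink1 had an adult difference of 0.05 and an aged difference of 2.03, an interaction of -1.98 (SE 0.47, limma adjusted p = 0.00237). Sqstm1 gave -0.13 in adult and 2.32 in aged ovaries, Lamp1 -0.02 and 2.36, and Gpx1 -0.02 and 2.33. Their limma interaction adjusted p were 0.00057, 0.000391 and 0.000317. Of the 24 measured genes of the short list, 14 passed this test, against 47.3% of all genes. By list, the adult effect was lower in 11 and higher in 2 of 19 mitophagy genes, lower in 15 and higher in 7 of 39 lysosome genes, and lower in 15 and higher in 0 of 33 antioxidant genes. It was higher in 12 and lower in 0 of 13 mitochondrially encoded genes, whose median was -0.15 in adult and -2.08 in aged ovaries. Over all genes 24.9% were lower and 22.4% higher. For cholesterol synthesis 10 of 22 passed, all with a lower adult effect. For macrophages 4 of 19 passed, all with a higher adult effect, where 22.4% of all genes were higher.

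Genes with the smallest interaction p were far apart between the ages, with adult values near 0. Xrcc4 of DNA end joining gave -0.33 in adult and 2.67 in aged ovaries (limma interaction adjusted p = 0.000256). Fam174a, Ndfip1 and Grsf1 also had lower adult effects. Higher adult effects were found for Ccdc9 (0.26 and -2.37), Lrrfip2 (0.30 and -2.45), Ercc5 of nucleotide excision repair, Nup210l, Cdk11b and 4931413K12Rik. Among the genes named first, Pf4 was at -0.50 and Cstb at 2.20 in aged ovaries. Both differed between ages (limma interaction adjusted p = 0.00839 and 0.0031), Cstb with the same sign in both. The genes named first were chosen for their adult differences, which the interaction uses again, so a pass here is no separate support. Zranb3 (-2.20 in aged ovaries) and Adhfe1 (-1.47) had the same sign in both ages. They did not pass the test of the difference (limma interaction adjusted p = 0.0886 and 0.584).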

How the data were processed

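Per the labels' protocols, total RNA of ovaries came from a TRIzol extraction and was read by Illumina sequencing. The submitters' processing notes name the aligner HISAT2 (2.0.5), DESeq2 (1.20.0) and the read counter featureCounts (1.5.0-p3), while the build, annotation and strand setting were not given in the sources used here. The authors deposited 1 table of scores, 17651 genes by 20 libraries, each gene scaled to a mean of 0 and an SD of 1. Depth, levels and the choice of genes in the table are not given, so no count test, pseudocount, fold or counting interval applies. Of the gene IDs, 17630 matched GENCODE release M21 (GRCm38) and 21 did not. Those coordinates need not be on the authors' build.

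Genes were tested with limma 3.58.1 in R 4.3.3 on the 8 adult libraries, 1 coefficient per group, with Benjamini-Hochberg adjustment over all genes at 0.05. The interaction and the effect in aged ovaries used all 20 libraries. A shared lowest score means equal within 1e-09 in at least 2 libraries, and 4445 genes had one. The scripts were checked on simulated scores. The comparison and the gene lists were chosen with earlier results of these data known, so lists have counts and medians and no test. Of 1334 genes in the lists 1153 were measured, 4 through an older name. Single genes named are the 12 in each direction that passed or, as none did, had the smallest p without overlap or shared lowest score, leaving out predicted genes, pseudogenes and small RNAs; the 3 members with the smallest p of the 12 lists with the largest medians; 24 of 26 fixed genes; and 6 in each direction of the interaction. Some genes so taken are not reported here, and members that show the range of a list were picked with their values in view. Promoters are from RefSeq.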

Additional observations from a re-analysis of the deposited data

Results flagged for a closer look

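In 9 of 190 groups of 4 libraries of the named genes, 1 library lay apart, with a gap to the nearest other beyond Dixon's 95% critical value. Chance gives about 1 in 20 groups. Control library 3 stood apart in Ctsd (0.043), Gpx1 (0.080) and Pkd2l2 (0.73), control library 4 in Bnip3 (0.30) and Cish (-0.056), and control library 2 in Diras2 (0.33). HEP14 library 1 stood apart in Pkd2l2 (-1.87), library 3 in Prkca (-0.43) and library 4 in Hmox1 (1.82).

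The effect of HEP14 in adult minus that in aged ovaries passed limma's test of the difference in these named genes, as in 47.3% of all genes. Lower adult effects among mitophagy and lysosome genes were those of Pink1 (-1.98), Bnip3 (-2.18), Sqstm1 (-2.45), Lamp1 (-2.38) and Ctsd (-1.77), and a higher one that of Mcoln1 (1.23). Antioxidant genes with a lower adult effect were Cat (-2.95), Gpx1 (-2.35), Prdx3 (-2.78) and Hmox1 (-1.69). Prkca (-2.22), Amh (-1.95) and Gdf9 (-1.58) were also lower.

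Among genes named for their adult difference, the adult effect was lower for Cstb (-1.62), Diras2 (-2.25), Nt5c3 (-2.79) and Tmed8 (-2.23). It was higher for Pf4 (2.22), Ppp1r18 (2.40), Hhipl1 (2.15), 1810021B22Rik (2.27) and Maco1 (1.45). Genes of both directions were chosen for the adult differences that enter the interaction. Their passes are thus no separate support and cannot be set against the share over all genes. The genes chosen by the interaction itself were Xrcc4 (-3.00), Fam174a (-2.87), Ndfip1 (-2.55) and Grsf1 (-2.43) with lower adult effects, and Ccdc9 (2.63), Lrrfip2 (2.75), 4931413K12Rik (2.61), Cdk11b (2.49), Nup210l (2.46) and Ercc5 (2.40) with higher ones.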

How the results depend on the processing

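The number of genes that passed in adult ovaries was 1 in a fit of all 20 libraries and 1 without HEP14 library 4, Gm38115 in both, and 0 under every other alternative run. All controls stood at the lowest score of Gm38115 and so added no spread to either fit. Genes with an unadjusted p under 0.05 numbered 345 in the 20-library fit, 355 among genes without a shared lowest score (fewer genes tested) and 1055 with library weights. They numbered 1041 without control library 4 and HEP14 library 3. That pair was chosen as the closest across groups, which by itself tends to raise this count. Leaving out each library in turn gave 395 to 1260, the highest without control library 4. For the weights and the single libraries left out the cause was not tested. The core histone median was -0.074 without control libraries 1 and 2. Interaction counts ranged from 7563 to 8793 with 1 library left out, and were 7823 with medians set equal and 8658 with library weights. Same-numbered libraries correlated at -0.19 to 0.15 in their deviations from the group means, and 2 of 8 libraries correlated best with their own number, so the numbers were not taken to pair them. With the replicate number as a block 0 genes passed, 596 had an unadjusted p under 0.05, and 8182 passed in the interaction. What read depth limits is unknown, as the scores hold none.

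Of 83 single genes, 0 passed under any alternative and 17 changed sign in 48 of 1322 values. Without control libraries 1 and 2, the differences were 0.18 for Hist1h4k, 0.069 for Bnip3, 0.10 for Lamp1, 0.19 for Ctsd, -0.048 for Hmox1, -0.15 for Nqo1, 0.18 for Gpx1, 0.042 for Cat, 0.043 for Sod2 and 0.29 for Star. Without control library 4 and HEP14 library 3 they were 0.075 for Bnip3, 0.013 for Sqstm1, 0.17 for Ctsd, -0.26 for Prkch, 0.052 for Gpx1 and 0.0084 for Gdf9. With library weights they were 0.090 for Prkcd and -0.15 for Prkch. With 1 library left out the ranges were -0.25 to 0.25 for Pink1, -0.17 to 0.16 for Bnip3, -0.30 to 0.12 for Sqstm1, -0.11 to 0.040 for Lamp1, -0.26 to 0.094 for Ctsd, -0.32 to 0.25 for Prkcd, -0.21 to 0.29 for Prkch, -0.064 to 0.41 for Hmox1, -0.062 to 0.26 for Nqo1, -0.21 to 0.063 for Gpx1, -0.18 to 0.011 for Amh, -0.16 to 0.021 for Gdf9 and -0.040 to 0.71 for Cyp19a1. The cause was not tested.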
